A study of Mus musculus with 6 samples.

Results

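p53 and 30 genes of its network were followed through the open chromatin and the Tfcp2l1 binding of mouse embryonic fibroblasts (MEFs). The 31 genes are a named list of p53 (Trp53), its relative Trp73 and genes known as p53 targets, and every one of them was found in the annotation among 21938 protein-coding genes. For each gene, ATAC-seq peaks were counted within 1 kb of a transcription start site (TSS), here called promoter peaks, and in the gene with 5 kb on either side, and ChIP-seq peaks were counted within 100 kb of a TSS. The cells were C57BL/6J MEFs, the ATAC-seq ones labelled as taken from E13.5 embryos, and each condition has 1 library. Hyp-Imm are MEFs immortalized in 3% oxygen, Norm-Sen are senescent MEFs in 20% oxygen, Hyp-Pro are passage 1 MEFs in 3% oxygen and Norm-Pro are passage 1 MEFs in 20% oxygen. The ChIP-seq of Tfcp2l1 was made in immortalized MEFs in 3% oxygen (Hyp) and in senescent MEFs in 20% oxygen (Norm). Hyp-Imm and Norm-Sen differ in oxygen and in growth state at once, and these cannot be told apart. These are bulk cultures, so a peak that is missing from a list can mean fewer cells with open chromatin or less open chromatin per cell.

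p53 is a transcription factor that is held at a low level by Mdm2 and Mdm4 and is stabilised by DNA damage and other stress. It then binds a pair of adjoining copies of a short motif in its target genes and raises their transcription, which leads to arrest of the cell cycle, DNA repair or death of the cell. In primary mouse fibroblasts in culture p53 is best known as a brake on growth at senescence, and spontaneous immortalization of such cultures often goes with its loss.

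In the ATAC-seq data, sample labels and file names give different conditions for each of the 4 libraries. Conditions were taken from the labels. By the file names the library labelled Hyp-Imm would be Norm-Sen, the one labelled Norm-Sen would be Hyp-Pro, the one labelled Hyp-Pro would be Norm-Pro and the one labelled Norm-Pro would be Hyp-Imm. The peak names inside the files carry tags that are not explained in the sources used here and that split the libraries by oxygen level under either reading, so a difference between oxygen levels cannot be told apart from one between the tags. The lists held 37770 peaks for Hyp-Imm, 61408 for Norm-Sen, 47523 for Hyp-Pro and 69122 for Norm-Pro, and for ChIP-seq 612 for Hyp and 393 for Norm. Of 10 fibroblast markers, 3, 6, 5 and 5 had a promoter peak in Hyp-Imm, Norm-Sen, Hyp-Pro and Norm-Pro. These counts are close to the shares of all protein-coding genes, 34.2%, 51.6%, 48.2% and 53.4%. Col3a1, Prrx1 and Lum had no promoter peak in any library. The epithelial, endothelial, blood and neural lists of 5 markers had between 0 and 2, in Hyp-Imm 1, 1, 2 and 2. The marker counts therefore do not identify the cell type. With no replicate library no test was made, and the intervals given cover counting error only.

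p53 full sites lay in open regions of 5 of the 31 genes. A full site was taken as a pair of adjoining copies of the p53 motif, 20 bases in all, on either strand, with no more than 2 mismatches and the C and G in the core of each copy kept. In the genes and 5 kb around them, 1264 kb in all, 31 sites were found in 18 genes, and 6 sites overlapped an open region. The open regions cover 2.19% of the same bases and held 19.4% of the sites. The sites of Ccng1, Plk2, Eda2r and Bax are shown as examples of p53 sequences that overlapped an open region, with the one of Pmaip1 given by position only, on GRCm38 with the site in capitals and up to 20 bases of context in lower case, each read on the strand of its gene, with the position of its centre from the nearest TSS (negative is upstream).
Ccng1, position −161 from the TSS, outside the gene, minus strand, chr11:40755462-40755481: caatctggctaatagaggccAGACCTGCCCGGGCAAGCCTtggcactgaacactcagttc
Ccng1, position +365, in an intron, minus strand, chr11:40754936-40754955: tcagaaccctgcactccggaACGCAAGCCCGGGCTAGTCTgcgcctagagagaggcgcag
Plk2, position −642, outside the gene, plus strand, chr13:110394394-110394413: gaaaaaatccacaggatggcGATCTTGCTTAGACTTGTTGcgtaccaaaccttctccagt
Eda2r, position +606, in an intron, minus strand, chrX:97376534-97376553: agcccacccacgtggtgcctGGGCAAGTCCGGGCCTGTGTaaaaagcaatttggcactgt
Bax, position +191, in a UTR of at least 1 transcript, minus strand, chr7:45466574-45466593: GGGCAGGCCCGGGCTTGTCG

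The Ccng1 sites had 1 mismatch each and the Plk2, Eda2r and Bax sites had 2. The upstream Ccng1 site lay whole inside a peak of Hyp-Imm, Norm-Sen and Hyp-Pro and outside the Norm-Pro peak, and no peak covered the whole of its intron site. The Bax site lay whole inside a peak of Norm-Sen, Hyp-Pro and Norm-Pro, the Plk2 site inside one of Norm-Sen and Norm-Pro, and the Eda2r site inside one of Hyp-Pro. The remaining site stood at −93 from the TSS of Pmaip1, inside the Norm-Sen peak. Of the 6 sites, the upstream one of Ccng1 was thus the one that a Hyp-Imm peak covered.

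Sites close to the consensus also lay outside the open regions. The 2 sites with no mismatch, in introns of Zmat3 and Apaf1, were 1157 and 1272 bp from the nearest open region. None of the 2 Mdm2 sites and the 3 Mdm4 sites, 2 of which overlap each other, was in an open region. This holds for the rule of 2 mismatches. With 3 allowed, the 300 bp around an open Mdm2 region centred 593 bp after the TSS held a site. The Mdm4 regions held none, and 1.80% of all regions had one. The promoter of Ckap2 has a site at −194, shown because it stood 14 bp outside a promoter region open in all 4 libraries. The inner promoter of Trp73, from which a shorter form without the transactivation domain is made, has a site at −57 from that start, 5227 bp from the nearest open region.
Ckap2, position −194, outside the gene, minus strand, chr8:22186003-22186022: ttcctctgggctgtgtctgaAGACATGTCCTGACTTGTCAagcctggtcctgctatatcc
Trp73, position −57 of the inner start, in an intron of the longer form, minus strand, chr4:154097220-154097239: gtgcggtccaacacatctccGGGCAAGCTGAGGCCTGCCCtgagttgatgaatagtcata

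**Figure D1:**
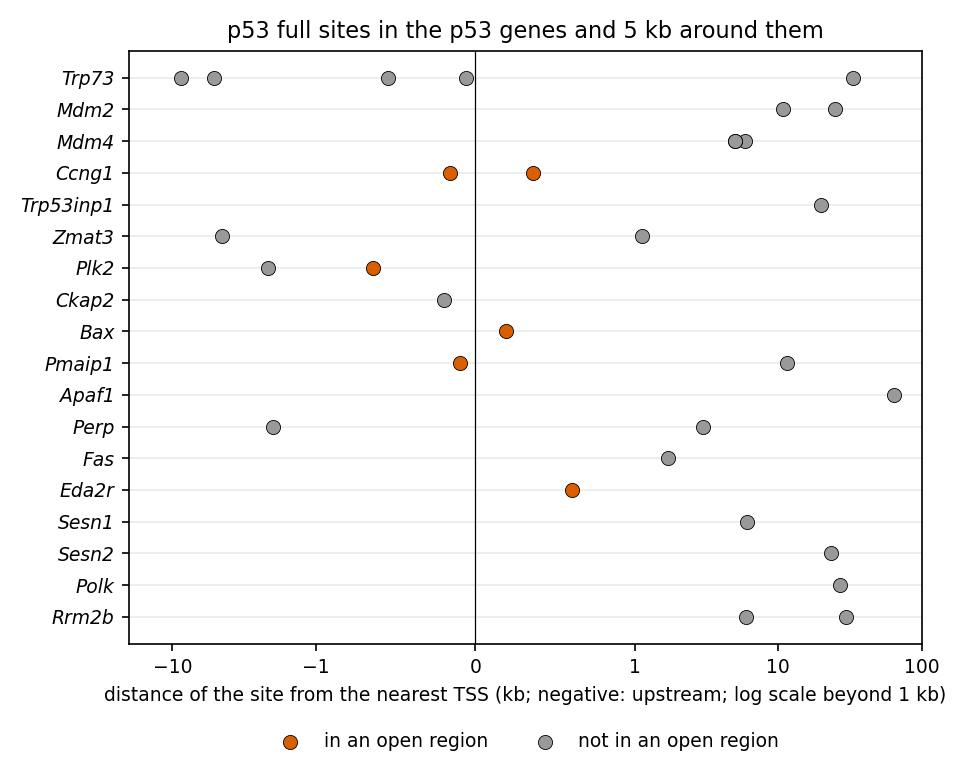
Each point is a p53 full site in a gene of the list or the 5 kb around it, at its distance in kb from the nearest TSS (negative is upstream, log scale beyond 1 kb); orange points overlap an open region of at least 1 library. The 6 orange points lie within 1 kb of a TSS, in Ccng1, Plk2, Bax, Pmaip1 and Eda2r.

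Set beside all open regions, the regions of the p53 genes held the site more often. In 300 bp around the centre of each region, 7 of the 140 regions of the p53 genes had a full site (5.00%, 95% exact Clopper-Pearson interval 2.03 to 10.0%), against 711 of 170337 regions in the pool of the 4 libraries (0.417%). Of the 55 regions at their promoters 6 had one, against 0.306% of 24504 promoter regions. Eda2r accounts for 2 of the 7 with the same site, and a Trp73 intron region open in Norm-Sen for 1, with a site 3 bp from its edge. In the RefSeq promoter table (250 bases before and 50 after a start, GRCm38.p6) 23 of the 31 genes had an entry, and Trp53inp1, Zmat3, Pmaip1, Perp, Tnfrsf10b, Ddb2, Xpc and Rrm2b are named without one. Of their 30 promoters 3 had a site, those of Ccng1, Ckap2 and the inner start of Trp73, against 0.326% of 32851 promoters. A match is a description of the letters and not a site of binding in these cells, and p53 targets are in part known through such sites.

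Most promoters of the p53 genes were open in each library. Of the 31 genes, 22 had a promoter peak in Hyp-Imm (71.0%, interval 52.0 to 85.8%) and 29 in Norm-Sen (93.5%, 78.6 to 99.2%). In the passage 1 cells it was 27 for Hyp-Pro (87.1%, 70.2 to 96.4%) and 30 for Norm-Pro (96.8%, 83.3 to 99.9%). Over all protein-coding genes the shares were 34.2% for Hyp-Imm, 51.6% for Norm-Sen, 48.2% for Hyp-Pro and 53.4% for Norm-Pro. Hyp-Imm had the lowest count in the p53 genes and over all genes alike. Its list is also the shortest, and its background, estimated in reads from the steps of the fold values, was the lowest, at 0.445 for Hyp-Imm against 1.77 for Norm-Sen, 0.956 for Hyp-Pro and 1.24 for Norm-Pro. The estimate is rough, since the fitted step matched 24.8%, 22.6%, 19.6% and 30.9% of the fold values in these libraries. The part of depth in the low count was not tested. In all 4 libraries 21 of the 31 promoters were open, against 25.8% of all genes, and none was without a peak in every library, where 7452 of the 21938 genes were. The promoters of the p53 genes are also rich in CpG, with a median ratio of observed to expected CpG of 0.745 over 30 RefSeq promoters against 0.384 over 32851. Taking the highest ratio of each gene, the median over all genes rose with the number of open libraries, from 0.2 for none to 0.843 for 4. In the p53 genes that median did not rise steadily. It was 0.864, 0.536, 0.494 and 0.782 for 1, 2, 3 and 4 libraries, from 1, 1, 3 and 18 genes. The part of CpG content in the high share was not tested.

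**Figure D2:**
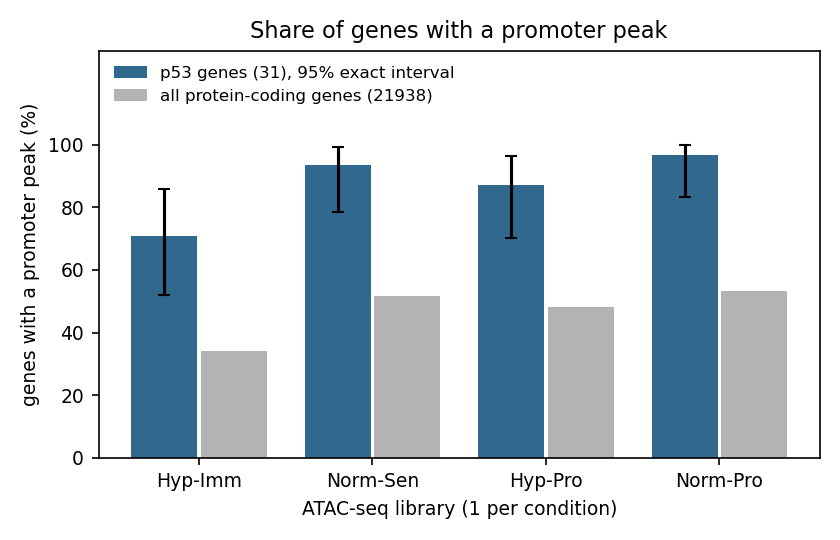
Bars give the percentage of genes with a peak within 1 kb of a TSS in each ATAC-seq library, blue for the 31 p53 genes with 95% exact intervals and grey for all 21938 protein-coding genes. The blue bars stand at 71.0, 93.5, 87.1 and 96.8%, each above the grey bar of its library.

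The median promoter peak of the p53 genes was also stronger than that of all genes, with a wide spread between genes. The −log10 q of a peak is the confidence of the peak caller within its own library, and it was not compared between libraries. The strongest promoter peak of a p53 gene had a median −log10 q of 5.78 for Hyp-Imm, 9.23 for Norm-Sen, 8.35 for Hyp-Pro and 7.89 for Norm-Pro, against 4.05, 6.01, 5.84 and 6.46 over all genes with a promoter peak in those libraries. Set among those promoter peaks of all genes in Norm-Pro, the p53 genes ran from the top 2.075% (Sesn3) to the top 99.7% (Trp73). As a rank, the median member stood in the top 7.69% for Hyp-Imm, 5.25% for Norm-Sen, 7.11% for Hyp-Pro and 7.73% for Norm-Pro, against 21.7%, 14.1%, 16.6% and 11.6% over all genes with a promoter peak. Ranks below are likewise the share of a library's own peaks with a −log10 q at least as high. The lists differ in length, so ranks are set side by side as values and no difference between cultures is read from them.

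**Figure D3:**
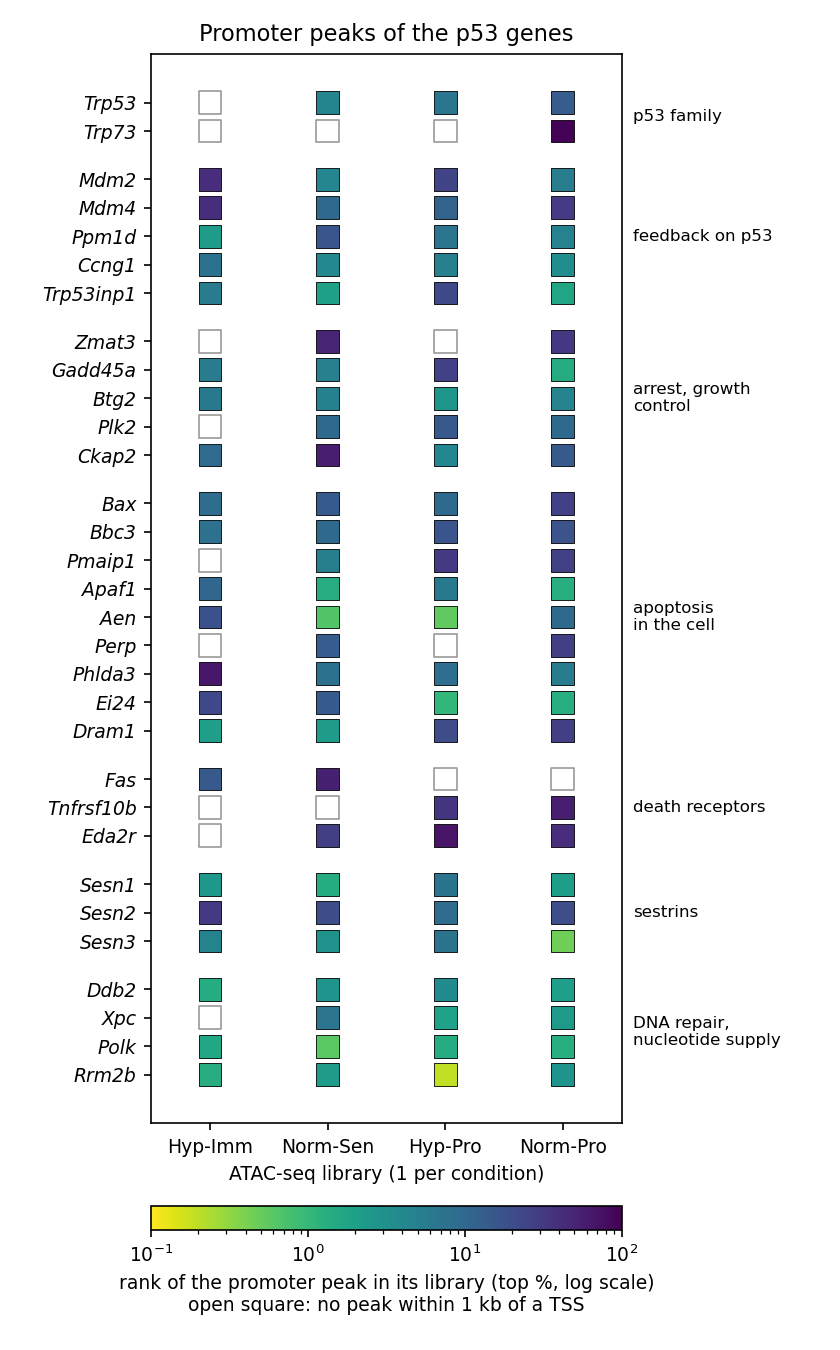
Rows are the 31 p53 genes by role and columns the 4 ATAC-seq libraries; a filled square is a promoter peak, coloured by its rank among the peaks of its library (top %, log scale), and an open square is a gene with no peak within 1 kb of a TSS. The Hyp-Imm column has 9 open squares, the Norm-Sen column 2, the Hyp-Pro column 4 and the Norm-Pro column 1.

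In immortalized against senescent MEFs the promoter calls differed in 1 direction, the one that was commoner over all genes too. No p53 gene had a promoter peak in Hyp-Imm and not in Norm-Sen, where 4.68% of all genes did. In Norm-Sen and not in Hyp-Imm a peak was found for 7 genes, Trp53, Zmat3, Plk2, Pmaip1, Perp, Eda2r and Xpc, which is 22.6% of the list and close to the 22.1% of all genes. The 7 genes are spread over the roles of the pathway, and at this setting none of them belongs to the feedback regulators or the sestrins. That depends on the peak threshold. With a −log10 q of at least 5 it was 11 genes, among them Mdm2, Mdm4 and Sesn2 and without Zmat3 and Eda2r. The share of all genes was not computed at that threshold. With 37770 peaks kept in each library the same 7 genes were found, and the share of all genes was then 17.1%. By the file names the direction turns. A promoter peak was then found in Hyp-Imm and not in Norm-Sen for 9 genes, Trp53, Trp73, Zmat3, Plk2, Pmaip1, Perp, Tnfrsf10b, Eda2r and Xpc. In Norm-Sen and not in Hyp-Imm it was 1, Fas. That reading sets the longest list, of 69122 peaks, against the shortest, of 37770. Over all genes these lists had a promoter peak for 53.4% and 34.2%. The share of all genes that differ was not computed for it, so the 9 and the 1 are not read as particular to the p53 genes.

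Within the list, the 7 promoters had a lower median peak strength in Norm-Sen than the others. Their median −log10 q there was 7.06 (range 3.74 to 10.0), against 9.80 (3.43 to 18.4) for the 22 that had a Hyp-Imm peak too, and the ranges overlap. Among Norm-Sen peaks under a −log10 q of 5, 2 of 4 p53 genes had no Hyp-Imm peak, between 5 and 10 it was 4 of 13, and between 10 and 20 it was 1 of 12, that of Trp53. Over all genes the same shares were 64.4%, 38.4% and 13.4%. The median of the 7 was still above the 6.01 of all genes with a Norm-Sen promoter peak, and Trp53, Pmaip1 and Xpc, with 10.0, 9.23 and 8.26, were each above it.

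**Figure D4:**
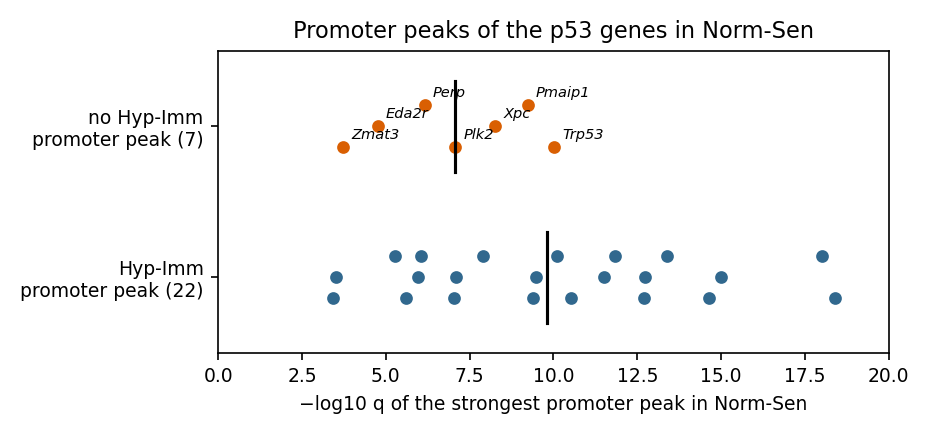
Points are the 29 p53 genes with a Norm-Sen promoter peak, at the −log10 q of that peak, split by whether Hyp-Imm also had one; black lines are medians, 7.06 for the 7 genes without a Hyp-Imm peak and 9.80 for the 22 with one. The groups overlap, and Trp53 has the highest value of the 7.

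Among promoters open in the other 3 libraries, p53 genes lacked a peak in Hyp-Imm alone, the library where all genes lacked one most often too. There 5 of 26 had no peak (19.2%, interval 6.55 to 39.4%), against 31.8% of all genes. In Norm-Sen, Hyp-Pro and Norm-Pro it was 0 of 21 each time (interval 0 to 16.1%, for counting error only), against 5.32%, 7.57% and 3.32% of all genes. The 5 genes are Trp53, Plk2, Pmaip1, Eda2r and Xpc.

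The 3 other comparisons turned on Fas, Tnfrsf10b, Trp73 and the genes missing from Hyp-Imm. In Norm-Sen and not in Norm-Pro a promoter peak was found for 1 gene, Fas (7.53% of all genes), and in Norm-Pro and not in Norm-Sen for 2, Trp73 and Tnfrsf10b (9.3%). In Hyp-Imm and not in Hyp-Pro it was 1, again Fas (5.53%), and in Hyp-Pro and not in Hyp-Imm it was 6, Trp53, Plk2, Pmaip1, Tnfrsf10b, Eda2r and Xpc, which is 19.4% of the list and 19.5% of all genes. Between the passage 1 cultures, 0 genes were open in Hyp-Pro and not in Norm-Pro (6.26%) and 3 the other way, Trp73, Zmat3 and Perp (11.5%). The 4 comparisons share libraries, so Fas and the genes missing from Hyp-Imm are counted in more than 1 of them.

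The p53 gene itself depended on where its promoter is drawn. Trp53 (chr11:69580359-69591873, plus strand) had a region open in Norm-Sen, Hyp-Pro and Norm-Pro, with ranks in the top 4.27%, 6.64% and 13.5% and summits at −1007, −1082 and −986 bp from the TSS. The nearest edge of that region is 896 bp from the TSS, just inside the 1 kb window. Trp53 shares its promoter with Wrap53, which starts 104 bp away on the other strand and makes a telomerase assembly factor, so the region belongs to both genes by distance. A 2nd region, in an intron, begins 1065 bp from the nearest TSS of Trp53, just outside the window, and was open in Hyp-Imm, Norm-Sen and Norm-Pro at ranks of 48.7%, 2.67% and 9.37%. With a window of 2 kb Trp53 counts as open in every library, and with 500 bp in none.

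Trp73, whose product is related to p53 and can bind its sites, had a promoter peak in the fewest libraries of the list. Its promoter peak was in Norm-Pro alone, 173 bp after the TSS, and at a −log10 q of 1.90 it stood near the end of that list (top 96.6%). Farther up, at −2172 and within 1 kb of the start of Wrap73, a region was open in Norm-Sen (−log10 q 9.03) and Norm-Pro (3.45), and a weak one beside it at −2357 in Hyp-Imm (2.05).

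The 5 regulators that feed back on p53 were open in all 4 libraries. Mdm2, the ubiquitin ligase that marks p53 for destruction, had its strongest promoter peak at ranks of 41.8% for Hyp-Imm, 4.17% for Norm-Sen, 25.0% for Hyp-Pro and 5.43% for Norm-Pro. The position of the Mdm2 peaks differed. The region at the start of the gene was open in Hyp-Imm, Norm-Sen and Norm-Pro, and a region centred 593 bp into the gene was open in Hyp-Imm, Hyp-Pro and Norm-Pro. Mdm2 is known to have an inner promoter in its first intron that answers to p53, and the strongest Hyp-Pro summit lay 638 bp after the TSS. Mdm4, the partner of Mdm2 that blocks p53, ranked in the top 40.7%, 9.85%, 11.7% and 30.0% of Hyp-Imm, Norm-Sen, Hyp-Pro and Norm-Pro.

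Ppm1d, the phosphatase Wip1 that reverses damage signalling, was the strongest of the group in Hyp-Imm, with a rank of 2.25% there against 16.1% for Norm-Sen, 6.74% for Hyp-Pro and 4.72% for Norm-Pro. Ccng1, cyclin G1, ranked 7.62% for Hyp-Imm, 3.83% for Norm-Sen, 5.03% for Hyp-Pro and 3.42% for Norm-Pro. These peaks lie at or beside the upstream p53 site printed above, with summits at −49 for Hyp-Imm, −131 for Norm-Sen, −145 for Hyp-Pro and −45 for Norm-Pro. Trp53inp1, a nuclear protein that favours the death program of p53, ranked 5.67% for Hyp-Imm, 1.96% for Norm-Sen, 22.5% for Hyp-Pro and 1.70% for Norm-Pro.

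The genes of arrest and growth control were divided. Gadd45a, which binds cell cycle and repair proteins after damage, and Btg2, an antiproliferative adaptor of mRNA decay, were open in every library, Gadd45a with 1 promoter peak in Hyp-Imm and 3 in Norm-Sen. Gadd45a ranked 5.85% for Hyp-Imm, 5.06% for Norm-Sen, 27.3% for Hyp-Pro and 1.48% for Norm-Pro. Btg2 ranked 6.18% for Hyp-Imm, 4.93% for Norm-Sen, 2.67% for Hyp-Pro and 4.49% for Norm-Pro, so it stayed in the upper part of every list. Ckap2, a protein of the mitotic spindle, was open in every library as well, with a rank of 9.52% in Hyp-Imm and 56.4% in Norm-Sen. Ckap2 alone in the list had a promoter peak with a −log10 q of at least 5 in Hyp-Imm and not in Norm-Sen. Zmat3, a zinc finger protein that binds RNA, had weak peaks in Norm-Sen (49.8%) and Norm-Pro (33.8%) and none in Hyp-Imm or Hyp-Pro. Plk2, a polo-like kinase induced by stress, had a promoter region of 946 bp in Norm-Sen, Hyp-Pro and Norm-Pro at ranks of 9.80%, 15.1% and 9.69%, and no peak in Hyp-Imm within the gene or 5 kb of it. The strongest Norm-Sen and Norm-Pro peaks of Plk2 covered its p53 site, and the strongest Hyp-Pro peak lay nearer to the TSS.

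Among the genes that drive apoptosis inside the cell, 7 of 9 were open in all 4 libraries. Bax, which opens the outer membrane of mitochondria, ranked 8.73% for Hyp-Imm, 14.4% for Norm-Sen, 9.76% for Hyp-Pro and 26.9% for Norm-Pro. The summit stood at −19 for Hyp-Imm, +201 for Norm-Sen, +126 for Hyp-Pro and +228 for Norm-Pro, and the Hyp-Imm peak alone did not reach the p53 site at +191. Bbc3 (Puma) and Pmaip1 (Noxa) make short proteins that set Bax free. Bbc3 has 3 annotated starts, and its strongest peak lay before an inner one in Norm-Sen (−104), Hyp-Pro (−176) and Norm-Pro (−31) and after another one in Hyp-Imm (+301). Counting the 5′ end of the gene alone, Bbc3 was open in Norm-Sen and Hyp-Pro and in neither Hyp-Imm nor Norm-Pro. Pmaip1 ranked 5.25% for Norm-Sen, 31.6% for Hyp-Pro and 26.3% for Norm-Pro and had no region in Hyp-Imm. Bax and Pmaip1, both with a p53 site by the TSS, thus differed in whether Hyp-Imm had a peak at all.

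Apaf1, the scaffold of the apoptosome, had 17 regions, the most of any gene of the list, and 13 of the 14 outside its promoter were in 1 library. Its promoter, shared with Ikbip 170 bp away, ranked 10.6% for Hyp-Imm, 1.34% for Norm-Sen, 6.12% for Hyp-Pro and 1.26% for Norm-Pro. Aen, an exonuclease that enhances apoptosis, ranked 18.2% for Hyp-Imm, 0.653% for Norm-Sen, 0.547% for Hyp-Pro and 9.59% for Norm-Pro. Ei24, a protein of the endoplasmic reticulum, had a −log10 q of 3.98 for Hyp-Imm, 6.04 for Norm-Sen, 16.1 for Hyp-Pro and 14.8 for Norm-Pro. Phlda3, which holds back Akt signalling, had the lowest −log10 q of any Hyp-Imm promoter peak in the list (2.86, top 65.7%) against 7.55% for Norm-Sen, 8.52% for Hyp-Pro and 5.87% for Norm-Pro. Dram1, a lysosomal protein that links p53 to autophagy, ranked 2.11% for Hyp-Imm, 2.32% for Norm-Sen, 20.7% for Hyp-Pro and 27.7% for Norm-Pro. Dram1 shares its promoter with Gnptab, whose TSS is 52 bp away. Perp, a membrane protein of cell contacts, had promoter peaks in Norm-Sen (13.5%) and Norm-Pro (27.6%) and no region of any kind in Hyp-Imm or Hyp-Pro.

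None of the 3 death receptors had a promoter peak in all 4 libraries. Fas, the receptor for Fas ligand, was open in Hyp-Imm (top 14.9%) and Norm-Sen (54.6%) and in neither passage 1 library, with summits at +7 and −1 bp from the TSS. Fas was the gene of the list with a promoter peak in both late cultures alone, and by the file names these libraries would be Norm-Sen and Hyp-Pro. Tnfrsf10b, the mouse receptor for TRAIL, went the other way, with peaks in Hyp-Pro (34.5%) and Norm-Pro (55.4%) at different places, +220 and +708 bp from the TSS, and no region in Hyp-Imm or Norm-Sen. Eda2r, a receptor for ectodysplasin A2 on the X chromosome, was open in Norm-Sen (27.8%), Hyp-Pro (70.0%) and Norm-Pro (41.1%). Fas in Hyp-Imm, in the top 14.9% of its list, had the highest rank of these peaks.

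The sestrins, which restrain mTORC1 and oxidative damage, were open in all 4 libraries. Sesn1 ranked 2.52% for Hyp-Imm, 1.44% for Norm-Sen, 7.02% for Hyp-Pro and 2.21% for Norm-Pro at the start it shares with Cep57l1, 64 bp away, and a region at a 2nd start of Sesn1 was also open in every library. Sesn2 had no Hyp-Imm peak over its TSS. A region centred 611 bp into the gene was open in all 4, and the region at the start was open in Norm-Sen, Hyp-Pro and Norm-Pro. With a window of 500 bp Sesn2 therefore joins the genes without a Hyp-Imm promoter peak. A region at −5127 from the Sesn2 TSS was open in all 4 libraries too, with a −log10 q of 5.96 for Hyp-Imm, 8.41 for Norm-Sen, 2.58 for Hyp-Pro and 7.54 for Norm-Pro. Sesn3 ranked 4.59% for Hyp-Imm, 3.05% for Norm-Sen, 7.11% for Hyp-Pro and 0.457% for Norm-Pro.

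Of the genes for DNA repair and nucleotide supply, 3 of 4 were open everywhere and stood high in their lists. Rrm2b, the p53-inducible subunit of ribonucleotide reductase, ranked 1.34% for Hyp-Imm, 2.29% for Norm-Sen, 0.196% for Hyp-Pro and 2.80% for Norm-Pro, and its Hyp-Imm peak had the highest −log10 q of the list in that library (9.88). Ddb2, which recognises ultraviolet damage, ranked 1.43% for Hyp-Imm, 2.83% for Norm-Sen, 3.70% for Hyp-Pro and 2.16% for Norm-Pro. Polk, a polymerase that copies past damaged bases, ranked 1.65% for Hyp-Imm, 0.590% for Norm-Sen, 1.41% for Hyp-Pro and 1.30% for Norm-Pro, so both stood near the top of every list. Polk shares its promoter with Col4a3bp, 133 bp away. Xpc, the damage sensor of nucleotide excision repair, was the exception, with ranks of 6.74% for Norm-Sen, 1.89% for Hyp-Pro and 2.39% for Norm-Pro and no promoter peak in Hyp-Imm. Its promoter also serves Lsm3, which starts 40 bp away. Of the 7 genes open in Norm-Sen and not in Hyp-Imm, Xpc had the strongest peaks in Hyp-Pro and Norm-Pro.

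Outside the promoters, open regions of the p53 genes were seldom shared, as in the whole pool. In the genes and 5 kb around them 140 regions were found, 45 for Hyp-Imm, 73 for Norm-Sen, 58 for Hyp-Pro and 74 for Norm-Pro. Of the 31 genes, those with a region numbered 25 for Hyp-Imm, 30 for Norm-Sen, 28 for Hyp-Pro and 31 for Norm-Pro, against 56.3%, 71.5%, 67.3% and 73.4% of all genes. The p53 genes had 3.56, 5.78, 4.59 and 5.85 regions per 100 kb in these libraries, against 1.92, 3.32, 2.68 and 3.61 over all genes. Of 55 promoter regions 21 were open in all 4 libraries, and of 85 other regions 3 were. These 3 lie downstream of Ckap2 at the promoter of Nek3, downstream of Bax at the promoter of Ftl1, and upstream of Sesn2, so the Sesn2 region is the one away from a protein-coding start. Of the 85, 74 were in 1 library, among them 45 of 50 intron regions. Counting only regions farther than 1 kb from any protein-coding TSS, 71 of 79 were in 1 library (89.9%), against 91.8% of 146028 such regions in the pool. Of the 61 regions nearer to such a TSS 20 were in 1 library (32.8%), against 48.9% of 24504 in the pool. Regions open in all 4 libraries were 1 of the 79 (1.27%) and 23 of the 61 (37.7%), against 0.562% and 18.2% in the pool. Kept to 37770 peaks a library, the counts were 45, 52, 48 and 52, closer together than with all peaks.

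**Figure D5:**
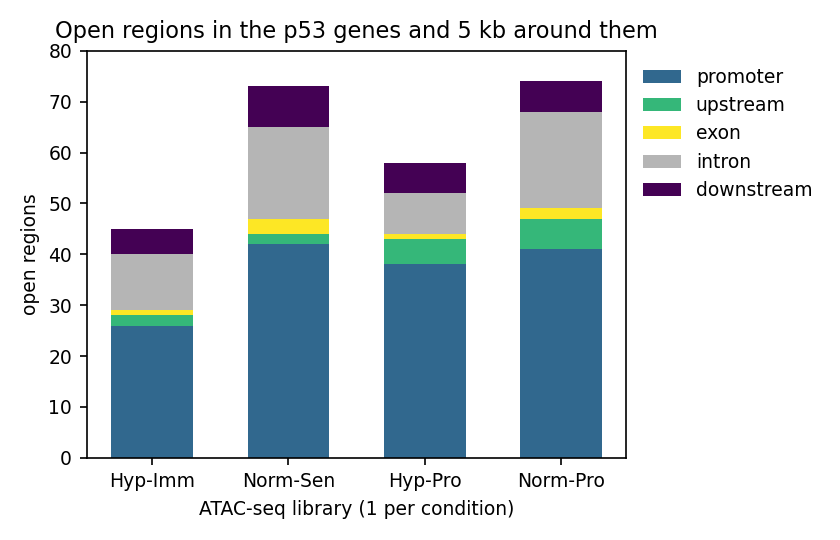
Stacked bars count the open regions of the 31 p53 genes and 5 kb around them in each ATAC-seq library, by place. Promoter regions number 26, 42, 38 and 41 in Hyp-Imm, Norm-Sen, Hyp-Pro and Norm-Pro, and the other places add 19, 31, 20 and 33.

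Other genes of the p53 pathway had shares of open promoters between those of the list and of all genes. Of 36 genes that act before p53, with it or after it and are not in the list, those with a promoter peak numbered 23 for Hyp-Imm, 29 for Norm-Sen, 25 for Hyp-Pro and 29 for Norm-Pro, which is 63.9%, 80.6%, 69.4% and 80.6% of them. In all 4 libraries 20 had one, and 4 had none in any library. In Hyp-Imm and not in Norm-Sen it was 2 of 36, beside the 4.68% of all genes. The 2 were Trp63, the other relative of p53, with a −log10 q of 3.81, and Gtse1, with 4.92. Gtse1 holds p53 back late in the cell cycle. In Norm-Sen and not in Hyp-Imm it was 8 of 36, beside the 22.1% of all genes. Among them were Cdkn1a, the p21 inhibitor of cyclin-dependent kinases, Tigar, which restrains glycolysis, Sco2, needed for cytochrome oxidase, Bid and Pidd1 of the death pathways, cyclin G2 (Ccng2) and the repair nuclease Ercc5. The Cdkn1a peak had a −log10 q of 2.57 for Norm-Sen, 4.93 for Hyp-Pro and 5.91 for Norm-Pro, so it was weak in the senescent library as well. None of the 36 had a Tfcp2l1 peak within 100 kb of a TSS, where 6.71% of all genes did in Hyp and 4.81% in Norm.

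Tfcp2l1 peaks near the p53 genes were few and lay at the same 2 genes in both ChIP-seq libraries. Tfcp2l1 is a transcription factor of the grainyhead family that helps to keep embryonic stem cells undifferentiated. Within 100 kb of a TSS a peak was found for 2 of the 31 genes in Hyp and for 2 in Norm (6.45%, interval 0.791 to 21.4%), against 6.71% of all genes in Hyp and 4.81% in Norm. The genes were Mdm4 and Apaf1 each time. At Mdm4 the Hyp peak lay 3.36 kb upstream, with a −log10 q of 4.68 and a rank of 61.3% in its list, and 2 Norm peaks lay 3.17 and 3.70 kb upstream, with a −log10 q of 10.5 and 14.1 and ranks of 50.1% and 36.6%. At Apaf1 a peak 98.6 kb upstream ranked 11.1% in Hyp and 44.8% in Norm, and a neighbour 99.3 kb away in Hyp and 99.2 kb in Norm ranked 24.7% and 55.2%. The Apaf1 peaks are just inside the limit, and the gene nearest to them is Tmpo. The next peak outside it was 163.54 kb upstream of Xpc, in Hyp.

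Every one of these peaks overlapped a tRNA gene. At Mdm4 they cover n-TKctt26 (chr1:133033962-133034034) and n-TKctt25 (chr1:133034327-133034399), 2 lysine tRNA genes of identical sequence on opposite strands, and at Apaf1 the tryptophan tRNA gene n-TWcca2 (chr10:91181412-91181483) and the aspartate tRNA gene n-TDgtc16 (chr10:91182097-91182168). Of all peaks 125 of 612 in Hyp and 165 of 393 in Norm overlapped one of 403 tRNA genes. Without these, no p53 gene had a peak within 100 kb in either library. Of all 21938 genes, 1094 had one in Hyp and 619 in Norm, so most genes had none either. The Tfcp2l1 consensus, 14 bases on either strand with no more than 2 mismatches, matched none of the 4 tRNA genes and 9.43% of the 403. It matched once between the Mdm4 tRNA genes, 25 bp from the nearer, inside the Hyp peak and a Norm peak. The match is shown because it is the Tfcp2l1 sequence in a peak near a p53 gene, with the match in capitals, and with the lysine tRNA gene nearest to it.
Tfcp2l1 match near Mdm4, plus strand, chr1:133034060-133034073: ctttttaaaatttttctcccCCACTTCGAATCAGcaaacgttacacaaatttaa
n-TKctt26, plus strand, chr1:133033962-133034034: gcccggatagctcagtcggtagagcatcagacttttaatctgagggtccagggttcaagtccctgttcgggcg

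ATAC-seq peaks lay on the same places. A Norm-Pro peak overlapped the Mdm4 ChIP-seq peaks of both libraries, and a Hyp-Pro peak overlapped the Hyp peak and the farther Norm peak. At Apaf1 a Norm-Sen peak overlapped the nearer peak and a Hyp-Pro peak the farther one. No Hyp-Imm ATAC-seq peak overlapped any of them. In the open regions of the p53 genes the Tfcp2l1 consensus was found in 1 of 140 windows of 300 bp (0.714%), in an intron of Ddb2, against 0.998% of the pool, and in 0 of their 30 RefSeq promoters, against 1.41% of all.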

How the data were processed

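ATAC-seq and Tfcp2l1 ChIP-seq were measured in 4 and 2 libraries. Per the labels and the study's methods, the authors aligned ATAC-seq reads to GRCm38 (mm10) with Bowtie2, dropped pairs over 2 kb apart, shifted reads for the Tn5 cut and ran MACS2 on each library (FDR 0.05). The ChIP-seq was ChIPmentation, with Bowtie and MACS2 (FDR 0.01), its build read as GRCm38 from scaffold names in the files. In the deposited lists the fold enrichment is the ratio of pileup to local background, and the −log10 p-value and −log10 q-value at the summit come from MACS2; the score deposited is derived from the q-value and was not used. The depth of the libraries is not in the lists.

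Peaks that overlap were merged into 170532 regions, of which 170337 on chromosomes 1 to 19, X and Y were searched for motifs. Genes were the protein-coding ones of GENCODE vM21. Counts and exact Clopper-Pearson intervals were computed with Python 3.11.15 and scipy 1.17.1 (1 bp overlap). All 31 members are named, and of 36 other p53 pathway genes those whose promoter differs between Hyp-Imm and Norm-Sen or that have a ChIP-seq peak, with neighbours that share a promoter or a peak. A withheld gene is not reported here. Members and lists were chosen with earlier results of these data known. The motif search, tested on simulated data, found 200 of 200 planted p53 sites. Alternatives covered peak threshold and number, windows, TSS choice, file-name conditions, tRNA peaks and motif rules.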

Additional observations from a re-analysis of the deposited data

How the results depend on the processing

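Of 128 recomputed counts, 94 stayed within 1.5 times their value. A −log10 q of at least 5 gave 19, 37, 28 and 31 regions in Hyp-Imm, Norm-Sen, Hyp-Pro and Norm-Pro, 1 member open in Hyp-Imm and not in Norm-Sen (Ckap2), 11 the other way, 5 in Norm-Sen and not in Norm-Pro, 1 the other way, 3 in Hyp-Pro and not in Norm-Pro, and 1 member with a Hyp ChIP-seq peak. In Norm-Pro and not in Norm-Sen it was 1 at a −log10 q of at least 2, 0 with equal numbers of peaks and 1 within 500 bp of the TSS. In Hyp-Pro and not in Norm-Pro it was 1 with equal numbers, within 500 bp and at the 5′ end of the gene. In Hyp-Imm and not in Hyp-Pro it was 2 within 500 bp (Mdm2 and Fas), and in Norm-Sen and not in Norm-Pro 2 at the 5′ end (Bbc3 and Fas). With conditions by the file names, Hyp-Imm and not Norm-Sen gave 9 and the other way 1, and Norm-Pro and not Norm-Sen gave 6. Hyp-Imm and not Hyp-Pro gave 2 and the other way 1, and Hyp-Pro and not Norm-Pro gave 3 and the other way 1. The shares of all genes were recomputed for promoter peaks with equal numbers of peaks and for ChIP-seq without tRNA peaks. With equal numbers they were 9.6% for Norm-Pro and not Norm-Sen and 7.28% for Hyp-Pro and not Norm-Pro. Counts at the −log10 q thresholds, other windows and distances, the 5′ end and the file names have no such share beside them. Those counts are not read as particular to the p53 genes. Members with a ChIP-seq peak were 1 in Hyp and 1 in Norm within 50 kb and 6 in Hyp within 200 kb. Without peaks on tRNA genes they were 0 in both, where 1094 of all 21938 genes had one in Hyp and 619 in Norm. A p53 full site with at most 1 mismatch was found in 3 of 140 regions (2.14%) and 1 of 30 promoters. Of all regions and promoters 0.0734% and 0.067% had one. With 3 mismatches it was 16 regions (11.4%) and 8 promoters, against 1.80% of all regions and 1.38% of all promoters. No paired analysis was possible because each condition has 1 library. A missing peak is not closed chromatin: depth is not in the lists, Hyp-Imm had the lowest estimated background, and its part in the Hyp-Imm counts was not tested.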
